A study of Mus musculus with 24 samples.

Results

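The genes described here are those by which a cell answers unfolded protein in the endoplasmic reticulum (ER) and shortage of amino acids. There were 31 such genes on the list, and 30 of them reached a mean of at least 1 CPM (the usual count unit, scaled to the size of the library) over the 24 libraries, out of 54532 genes in the count table. Nupr1, a stress-induced chromatin protein gene, fell short with a mean of 0.913 CPM, and the lowest genes inside the limit were Chac1 with 4.1 CPM and Trib3 with 5.8 CPM. The 30 genes were read in 4 role groups. The Atf4 arm held 8 genes (Atf4, Atf5, Ddit3, Trib3, Asns, Chac1, Sesn2 and Ppp1r15a), and the ER chaperones and folding enzymes held 14. ER-associated degradation held 4 genes, as did the sensors and factors of the ER stress response. All 30 also passed the filter on low counts of the tests, which kept 15090 genes.

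The libraries were made from mRNA of mouse liver. The knockout animals had the genotype Hlf-/-/Dbp-/-/Tef-/- and lacked the PAR bZip transcription factors, which the circadian clock drives and which act on genes downstream of it, while the wild-type animals were Hlf+/+/Dbp+/+/Tef+/+. Both genotypes were on ad libitum feeding, were 12 to 16 weeks old, and were sampled every 4 h, with ZT04 the first time and ZT24 the last, where zeitgeber time (ZT) counts the hours from lights on. There were 2 libraries for each genotype and time, 1 with the letter I in its label and 1 with the letter P, called set I and set P below. The labels name no cell type or promoter to which the deletion is limited, and neither the exons removed nor the meaning of the letters is given in the sources used here. The labels do not say whether the 2 libraries of each group are from different animals, so the p-values measure the spread between these samples only, which may be technical.

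In a cell with unfolded protein in the ER, the sensors Ern1 (IRE1), Eif2ak3 (PERK) and Atf6 start separate branches of the response. IRE1 splices the mRNA of Xbp1, and XBP1 and ATF6 switch on chaperones such as Hspa5 (BiP) and the machinery that returns misfolded protein to the cytosol for degradation. PERK, and the kinase GCN2 when amino acids run short, slow translation in general while favouring that of Atf4, whose product switches on genes of amino acid supply and of stress signalling such as Asns, Trib3, Chac1 and Ddit3 (CHOP). In liver, which secretes most plasma proteins, these genes are known to follow the feeding and fasting of each day.

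The promoters of the genes carry letters for both branches, and 3 are shown because they hold either an ER stress element or an amino acid response element. Herpud1, a gene of ER-associated degradation, holds an amino acid response element and the sequence CCACG, but not CCAAT and CCACG with 9 bases between. Other forms and spacings of the ER stress element were not searched, so Herpud1 may hold one. Its sequence below does contain ATTGGGCCACG. There ATTGG is CCAAT on the opposite strand, and CCACG follows it after a single G. The 3 sequences are RefSeq promoters of build GRCm38.p6, from 250 bases before the gene start to 50 bases after it, 5′ to 3′ on the strand of the gene. In the first promoter, capitals mark the parts CCAAT and CCACG of an ER stress element, which the factors of the ER stress response bind when 9 bases lie between them. In the other promoters, capitals mark an amino acid response element (TGATGNAA, here on the opposite strand), a site of ATF4 and its partners. The plus-strand positions are chr2:34771840-34772139 for Hspa5, chr8:94386179-94386478 for Herpud1 and chr2:119350992-119351291 for Chac1.
Hspa5: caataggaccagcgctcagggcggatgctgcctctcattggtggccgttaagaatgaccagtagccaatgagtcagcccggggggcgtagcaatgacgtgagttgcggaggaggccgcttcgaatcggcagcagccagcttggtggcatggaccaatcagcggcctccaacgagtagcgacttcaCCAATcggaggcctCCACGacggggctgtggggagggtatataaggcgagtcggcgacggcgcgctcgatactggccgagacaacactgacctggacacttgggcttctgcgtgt
Herpud1: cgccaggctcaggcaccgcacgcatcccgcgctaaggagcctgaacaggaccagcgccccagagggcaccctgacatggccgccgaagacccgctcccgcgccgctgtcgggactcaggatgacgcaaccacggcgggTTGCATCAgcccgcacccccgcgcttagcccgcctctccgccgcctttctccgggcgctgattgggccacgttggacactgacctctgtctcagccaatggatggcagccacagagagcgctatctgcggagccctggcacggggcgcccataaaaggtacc
Chac1: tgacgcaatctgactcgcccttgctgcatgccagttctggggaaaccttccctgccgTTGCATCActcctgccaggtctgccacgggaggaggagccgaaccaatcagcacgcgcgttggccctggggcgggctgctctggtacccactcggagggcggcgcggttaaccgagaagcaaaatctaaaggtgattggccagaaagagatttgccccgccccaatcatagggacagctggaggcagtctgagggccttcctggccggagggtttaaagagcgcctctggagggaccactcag

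Promoters were found for 27 of the 30 genes (not for Manf, Hyou1 and Atf6). The full ER stress element was present, on either strand, in 8 of these 27 and in 0.13% of all 27025 promoters of the table. It lay in 7 of the 12 chaperone and folding enzyme promoters and in Syvn1, a ubiquitin ligase of ER-associated degradation, and in 0 of the 8 promoters of the Atf4 arm. The 9 elements differ in the bases between their parts, as the lines below show, each turned so that CCAAT comes first, with the parts in capitals. Hsp90b1 had 2 of them.
Hspa5: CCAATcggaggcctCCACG
Hsp90b1: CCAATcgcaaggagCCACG
Hsp90b1: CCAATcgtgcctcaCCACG
Pdia6: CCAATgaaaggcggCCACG
Calr: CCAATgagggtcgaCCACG
Canx: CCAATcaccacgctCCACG
Dnajc3: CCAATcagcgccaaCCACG
Creld2: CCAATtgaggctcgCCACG
Syvn1: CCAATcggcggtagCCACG

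The amino acid response element lay in 4 of the 27 promoters and in 4.06% of all promoters. Its carriers were Trib3 (TGATGTAA), Asns (TGATGAAA) and Chac1 (TGATGCAA), which are 3 of the 8 genes of the Atf4 arm, and Herpud1 (TGATGCAA). The PAR bZip site TTANGTAA, searched on both strands, was in 0 of the 27 promoters and in 2.34% of all promoters, and the unfolded protein response element TGACGTGG was in 0 of 27 and in 0.607%. The shorter element CCACG alone, which every full element contains, was in 22 of 27 and in 32.7% of all. These matches are letters in a window of 300 bases and say nothing of binding.

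Some facts of the whole series bear on the values below. Counts per library totalled 14807940 to 17410682 in the knockout and 14613001 to 19288322 in wild type. The deleted genes matched the labels, with a highest knockout library of 0.114 CPM for Dbp, 30.1 CPM for Tef and 3.34 CPM for Hlf, below the lowest wild-type library of each (0.279, 42.4 and 46.9 CPM). The 6 wild-type libraries of set I stood apart from the rest. Across genes, their deviation from the median library followed the GC content of the transcript with r between 0.211 and 0.648, against −0.138 to 0.01 in knockout set I, −0.305 to −0.113 in knockout set P and −0.207 to 0.054 in wild-type set P. Of 7 hepatocyte marker genes, 6 were lower in the knockout. Their summed level was 44200 to 69600 CPM in knockout set I and 53700 to 64500 CPM in knockout set P, against 82900 to 99800 CPM in wild-type set I and 70600 to 96400 CPM in wild-type set P. In whole liver, fewer cells of a type and less RNA per cell cannot be told apart. Of 16 pancreatic acinar markers, genes of a secretory cell rich in ER chaperones, 6 were at 0 in all libraries, and the summed level of the list was 8.1 to 29.4 CPM in the knockout and 19.5 to 45.8 CPM in wild type. Of 8 tested markers of plasma and B cells 5 were lower in the knockout, of 9 Kupffer cell and macrophage markers 3 were higher, and of 5 red blood cell markers 1 was higher. Over all genes tested, 21.1% were called lower and 12.1% higher. The plasma and B cell list holds Derl3 (−1.13, edgeR adjusted p = 0.0204), which is also counted below among other ER folding and degradation genes. The part of these cell types, and of GC content, in the results was not tested.

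Averaged over the 6 times, 14 of the 30 stress genes were lower in the knockout and 0 were higher (edgeR quasi-likelihood test with Benjamini-Hochberg adjustment over all genes tested, adjusted p under 0.05). The lower genes made up 46.7% of the list, while 21.1% of all genes tested were called lower and 12.1% higher. At an unadjusted p under 0.05, Canx was the one gene on the higher side, and DESeq2 called 0 higher. The fit with the set letter as a block called 14 lower and 2 higher. The share called lower was the same in both arms, with 4 of 8 genes of the Atf4 arm and 7 of 14 chaperones and folding enzymes. In ER-associated degradation 2 of 4 genes were lower, and among the sensors and factors 1 of 4. The median log2 difference, knockout minus wild type, was −0.23 in the Atf4 arm, −0.21 in the chaperones, −0.19 in the degradation genes and −0.02 in the sensors, against −0.02 over all genes tested.

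**Figure D1:**
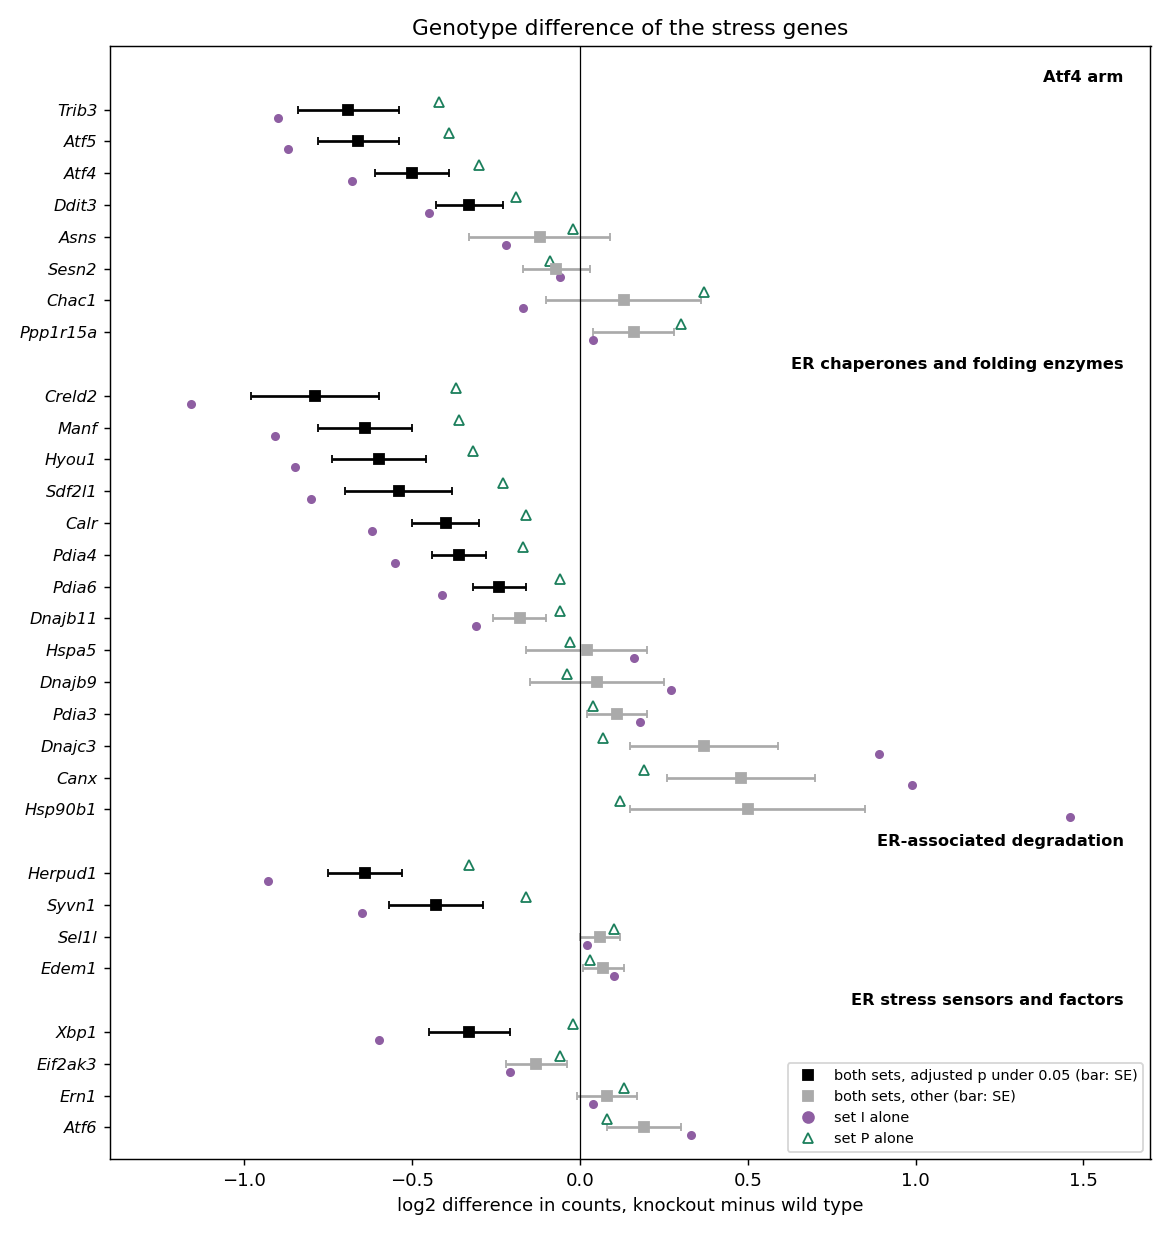
The log2 difference in counts, knockout minus wild type, of the 30 stress genes by role group. Squares are the average over 6 times in both sets with bars of 1 SE, black where the edgeR adjusted p was under 0.05, circles are set I alone and triangles set P alone; all 14 black squares lie left of 0, and each of these 14 genes is closer to 0 in set P than in set I.

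In the Atf4 arm the factors themselves were among the lower genes. Atf4 (ENSMUSG00000042406, mm10 chromosome 15, 80255184 to 80257541, plus strand) encodes the transcription factor that gives the arm its name. It ranged from 80.1 to 121 CPM (median 89.6) in the 12 knockout libraries, against 98.3 to 249 CPM (median 125) in the 12 wild-type libraries. The ranges overlapped, but 8 knockout libraries lay below the lowest wild-type library, and at 5 of the 6 times both knockout libraries were below both wild-type libraries. The log2 difference was −0.50 (SE 0.11, edgeR adjusted p = 0.00431). Atf5 (ENSMUSG00000038539, chromosome 7, 44812256 to 44816658, minus strand), a related factor that acts in mitochondrial and amino acid stress, ranged from 153 to 255 CPM (median 197) in the knockout and from 168 to 643 CPM (median 301) in wild type. The knockout libraries were again below both wild-type libraries at 5 of 6 times, with a log2 difference of −0.66 (SE 0.12, edgeR adjusted p = 0.0016). Atf5 overlaps Nup62 and Il4i1 on the opposite strand, and if strand was not used in counting, their reads cannot be told apart.

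Of the genes that ATF4 is known to switch on, some were lower and others did not pass the test. Trib3 (ENSMUSG00000032715, chromosome 2, 152337422 to 152344032), a pseudokinase that damps insulin signalling through AKT, had 1.9 to 11 CPM (median 3.2) in the knockout and 2.77 to 15.4 CPM (median 6.28) in wild type. The ranges overlapped widely over the day, but at 5 of the 6 times both knockout libraries were below both wild-type libraries. The log2 difference was −0.69 (SE 0.15, edgeR adjusted p = 0.00489). Ddit3, the CHOP gene of prolonged ER stress, had 3.3 to 6.89 CPM (median 5.37) in the knockout against 4.83 to 9.24 CPM (median 6.02) in wild type, a log2 difference of −0.33 (SE 0.10, edgeR adjusted p = 0.0264). Leaving out any 1 of 9 libraries ended that call, with an adjusted p of up to 0.0793, and the gene overlaps Mars on the opposite strand.

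The remaining genes of the arm gave no call. Asns, asparagine synthetase, had a median of 28.7 CPM in the knockout and 28.7 CPM in wild type (log2 difference −0.12, SE 0.21, edgeR adjusted p = 0.65). Chac1, which breaks down glutathione, had a log2 difference of 0.13 (SE 0.23, edgeR adjusted p = 0.648), and Sesn2, a leucine sensor upstream of mTORC1, one of −0.07 (SE 0.10). Ppp1r15a, which encodes the phosphatase subunit GADD34 that ends the translational block, was at 0.16 (SE 0.12, edgeR adjusted p = 0.27), and was called higher at 0.40 (edgeR adjusted p = 0.00158) with the set letter as a block and offsets for GC content and length. Nupr1, below the CPM limit and so not counted in the arm, had a median of 0.697 CPM in the knockout and 0.984 CPM in wild type. Nupr1 was called lower, at −0.43 (SE 0.15, edgeR adjusted p = 0.0439). Of the 3 genes of the arm with an amino acid response element in the promoter shown above or listed with it, Trib3 was called lower and Asns and Chac1 were not called.

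There were 4 members near a deleted gene, where DNA that came with the deleted allele can remain. Atf4 starts 1.55 Mb and Creld2 7.02 Mb from Tef on chromosome 15, and Atf5 starts 0.893 Mb and Ppp1r15a 0.182 Mb from Dbp on chromosome 7. Within 10 Mb of Tef, 35.7% of tested genes were called lower in the knockout, and within 10 Mb of Dbp 33.3%, against 21.1% of all genes. In set P alone the shares were 10.7% near Tef and 22.2% near Dbp, against 6.31% of all genes. The shares called higher were 8.93% near Tef and 17.4% near Dbp, against 12.1% of all genes. In set P alone they were 6.79% and 13.9%, against 6.7%. The part of position in the differences of these 4 genes was not tested.

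The chaperones and folding enzymes split into genes that were lower and genes that were level or above 0. Creld2 (ENSMUSG00000023272, chromosome 15, 88819646 to 88826683, plus strand), an ER protein that can be secreted under stress, had 12.5 to 80.3 CPM (median 21) in the knockout and 21.8 to 97.5 CPM (median 46.1) in wild type. There were 7 knockout libraries below the lowest wild-type library, and the log2 difference was −0.79 (SE 0.19, edgeR adjusted p = 0.00836). Manf, a secreted ER-resident survival factor, had 31 to 110 CPM (median 51.2) in the knockout against 50 to 172 CPM (median 82.4) in wild type, a log2 difference of −0.64 (SE 0.14, edgeR adjusted p = 0.00499). Hyou1, the large ER chaperone that exchanges nucleotide on BiP, had 106 to 366 CPM (median 197) in the knockout against 149 to 668 CPM (median 284) in wild type, with −0.60 (SE 0.14, edgeR adjusted p = 0.00624). In each of these genes the upper part of the knockout range overlapped the wild-type range.

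The other 4 lower genes of this group were Sdf2l1 at −0.54, a cofactor of ER Hsp40 chaperones, the lectin chaperone Calr at −0.40, and the disulfide isomerases Pdia4 at −0.36 and Pdia6 at −0.24 (edgeR adjusted p 0.0191, 0.0101, 0.00579 and 0.0323). Leaving out any 1 of 12 libraries ended the Pdia6 call, and leaving out wild-type set I at ZT16 or at ZT24 ended that of Sdf2l1, with an adjusted p of up to 0.0522 for Sdf2l1. Pdia6 overlaps Atp6v1c2 and Manf overlaps Dcaf1 on the opposite strand, and Manf also overlaps Rbm15b on the same strand.

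The major chaperone of the ER did not follow them. Hspa5 (ENSMUSG00000026864, chromosome 2, 34771970 to 34777547, plus strand) had 565 to 1710 CPM (median 770) in the knockout and 423 to 1630 CPM (median 860) in wild type. Neither genotype was consistently above the other, and the log2 difference was 0.02 (SE 0.18, edgeR adjusted p = 0.931). Pdia3 (0.11), Dnajb9 (0.05) and Dnajb11 (−0.18) also gave no call. Hsp90b1 at 0.50 (SE 0.35), Canx at 0.48 (SE 0.22) and Dnajc3 at 0.37 (SE 0.22) had the highest values of the group, with edgeR adjusted p of 0.242, 0.0949 and 0.171. With the set letter as a block in the fit, Canx at 0.56 (edgeR adjusted p = 0.0159) and Dnajc3 at 0.45 (edgeR adjusted p = 0.0349) were called higher. Of the 7 chaperone promoters with a full ER stress element, 3 belong to genes called lower (Calr, Creld2 and Pdia6) and 4 to genes not called (Hspa5, Hsp90b1, Canx and Dnajc3).

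In ER-associated degradation, Herpud1 had the smallest p of all 30 genes. Herpud1 (ENSMUSG00000031770, chromosome 8, 94386438 to 94395377, plus strand) encodes a membrane scaffold of the retrotranslocation complex. It ranged from 84.7 to 313 CPM (median 164) in the knockout and from 111 to 419 CPM (median 286) in wild type. The ranges overlap over the day, while at each of the 6 times both knockout libraries lay below both wild-type libraries. The log2 difference was −0.64 (SE 0.11, edgeR adjusted p = 0.000761). Syvn1, the ligase HRD1, was at −0.43 (SE 0.14, edgeR adjusted p = 0.0317), a call that ended when any 1 of 13 libraries was left out. Its partner Sel1l (0.06) and the mannosidase-like Edem1 (0.07) gave no call, although Edem1 turned to −0.24 (edgeR adjusted p = 0.0326) with the set block and offsets for GC content and length.

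Among the sensors and factors, Xbp1 alone was called. Xbp1 (ENSMUSG00000020484, chromosome 11, 5520659 to 5525893, plus strand), counted over its spliced and unspliced forms together, had 194 to 301 CPM (median 270) in the knockout and 193 to 628 CPM (median 313) in wild type. All 12 knockout libraries lay inside the wild-type range, and 8 wild-type libraries lay above the highest knockout library. The log2 difference was −0.33 (SE 0.12, edgeR adjusted p = 0.0442), a call that ended when any 1 of 18 libraries was left out. Atf6 (0.19), Ern1 (0.08) and Eif2ak3 (−0.13) gave no call, with edgeR adjusted p of 0.173, 0.454 and 0.254.

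In set P, which holds none of the 6 libraries of wild-type set I, 2 of 30 genes were called lower and 0 higher (edgeR, 12 libraries with time as a factor), or 6.67%, beside 6.31% of all genes called lower and 6.7% higher. The called genes were Atf4 and Atf5, both of the Atf4 arm and both near a deleted gene. At an unadjusted p under 0.05 there were 6 genes, beside 4388 of all 15090 genes tested. Of the 6, Atf4, Atf5 and Herpud1 were lower, and Ppp1r15a (0.30), Canx (0.19) and Ern1 (0.13) were higher. DESeq2 called 3 genes lower, the third being Herpud1. Set I alone gave 11 lower genes and 3 higher ones, where 16.1% of all genes were called lower and 17.6% higher; without 1 library of it the count was 0 to 11, with 0 or 1 when either genotype at ZT04 or ZT16 was left out and 3 when either at ZT20 was. In set P it was 0 when either genotype at ZT20 was left out and 1 when either at ZT04, ZT12 or ZT16 was. Set P therefore holds the chaperone arm at 0 of 14 called and the Atf4 arm at 2 of 8, and the difference between the arms was not tested. In the chaperone arm, 1 gene had an unadjusted p under 0.05, Canx on the higher side, and DESeq2 called 0. With offsets for GC content and length in set P alone, Atf4 at −0.23 and Atf5 at −0.26 lost their calls (edgeR adjusted p = 0.087 and 0.0577) and Ppp1r15a was called higher.

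In set P, Atf4 had 85 to 109 CPM (median 91.8) in the knockout and 98.3 to 135 CPM (median 113) in wild type, and the log2 difference was −0.30 (SE 0.08, edgeR adjusted p = 0.0268). In set I it had 80.1 to 121 CPM (median 84.7) in the knockout against 98.8 to 249 CPM (median 143) in wild type. Atf5 had 158 to 233 CPM (median 194) in knockout set P and 168 to 391 CPM (median 254) in wild-type set P, lower at each of the 6 times, with a log2 difference of −0.39 (SE 0.09, edgeR adjusted p = 0.0195). For both genes the knockout values are close between the sets, and the wild-type values are the ones that are higher in set I. Herpud1 was lower at 6 of 6 times in set P as well, at −0.33 (SE 0.11, edgeR adjusted p = 0.0743). The 14 genes called in the average all had a negative log2 difference in set I and in set P, and each was closer to 0 in set P. Creld2 was at −0.37, Manf at −0.36 and Hyou1 at −0.32 in set P (SE 0.27, 0.21 and 0.22), while Xbp1 was at −0.02 (SE 0.11).

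The genotype by set term, which tests the difference between the sets itself as set I minus set P, was called for 9 of the 30 genes, or 30%, against 29% of all genes tested (14.8% above 0 and 14.2% below). Leaving out any 1 of 18 libraries lowered the count to between 0 and 5. In 6 genes the difference was more negative in set I, namely Atf5 (−0.49), Pdia4 (−0.40), Pdia6 (−0.36), Calr (−0.47), Herpud1 (−0.60) and Xbp1 (−0.60). In Hsp90b1 (1.32), Canx (0.78) and Dnajc3 (0.80) it was more positive. Hsp90b1, the ER form of Hsp90, had 343 to 725 CPM (median 436) in knockout set I against 68.9 to 600 CPM (median 179) in wild-type set I. It had 416 to 777 CPM (median 633) in knockout set P against 454 to 589 CPM (median 565) in wild-type set P. The wild-type libraries of set I were low at 5 times and at 600 CPM at ZT24, and no other group of libraries had values under 343 CPM.

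These 3 genes have a low GC content in their longest transcript, 42.1% in Hsp90b1, 42.2% in Canx and 43.2% in Dnajc3. The 6 genes more negative in set I have 61.7% (Atf5), 53% (Herpud1 and Xbp1), 50% (Calr), 48.9% (Pdia6) and 47.6% (Pdia4). Dnajb9, at 40.6%, and Sesn2, at 58.7%, were not called by the genotype by set term. Across the 30 genes the log2 difference in set I followed GC content with r of −0.693 and log2 transcript length with r of 0.527. In set P the same values were −0.4 and 0.428. The points share their libraries, and the values are given as a description. With offsets for GC content and length the genotype by set term was called for 1 of the 30 genes, Sel1l.

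**Figure D2:**
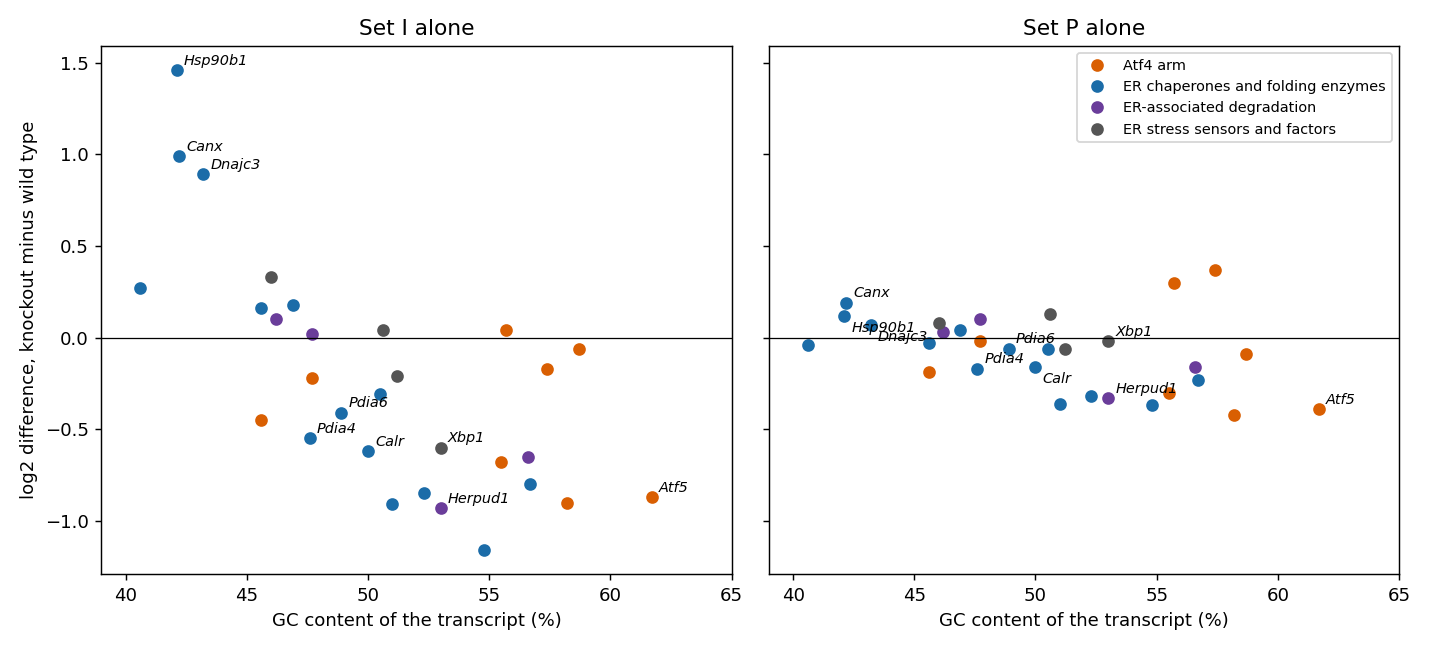
The log2 difference, knockout minus wild type, of the 30 stress genes against the GC content of the longest transcript in percent, in set I alone (left) and set P alone (right), coloured by role group. Names mark the 9 genes whose difference differed between the sets; Hsp90b1, Canx and Dnajc3 lie between 0.89 and 1.46 in set I and between 0.07 and 0.19 in set P.

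Between those limits, 8 of the 14 lower genes were called lower in every fit listed next. Atf4, Atf5, Pdia4, Calr, Creld2, Manf, Hyou1 and Herpud1 passed under DESeq2 size factors, no filter, DESeq2, the set block, the block with GC and length offsets, without wild-type set I, and without each single library in turn. Set P alone called only Atf4 and Atf5 of these 8, with Creld2 at −0.37 (edgeR adjusted p = 0.398). Without wild-type set I, Herpud1 was at −0.43, Creld2 at −0.60 and Atf4 at −0.31. That fit kept knockout set I and had no term for the set, so genotype and set cannot be fully told apart in it. Of the other lower genes, Trib3 (0.0563), Ddit3 (0.106), Pdia6 (0.239), Syvn1 (0.235) and Xbp1 (0.505) did not pass that fit by the edgeR adjusted p, Sdf2l1 did, and Ppp1r15a was called higher at 0.35 (edgeR adjusted p = 0.0157). With the block and GC and length offsets, Pdia6 (0.0853), Sdf2l1 (0.0901), Syvn1 (0.0711) and Xbp1 (0.273) lost their calls by the edgeR adjusted p.

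By time, 3 calls were made over the 30 genes and 6 times, all lower. At ZT04, Herpud1 had 124 and 136 CPM in the knockout against 299 and 281 CPM in wild type, a log2 difference of −1.16 (edgeR adjusted p = 0.0493). At ZT20 it had 125 and 142 CPM in the knockout against 376 and 179 CPM in wild type, at −1.06 (SE 0.27, edgeR adjusted p = 0.0439). Xbp1 at ZT20 had 194 and 243 CPM in the knockout against 628 and 328 CPM in wild type, at −1.13 (SE 0.30, edgeR adjusted p = 0.0479). In both genes at ZT20 the first wild-type library, of set I, is far above the second. The share of all genes called in either direction was 1.26% at ZT04, 0.934% at ZT08, 1.85% at ZT12, 1.65% at ZT16, 3.93% at ZT20 and 0.676% at ZT24. At ZT08, ZT12, ZT16 and ZT24 edgeR called 0 of the 30 genes, with 1, 2, 2 and 6 at an unadjusted p under 0.05. Of these, Ppp1r15a at ZT08 (0.68) and Edem1 at ZT12 (0.36) were on the higher side. DESeq2 also called 0 at ZT08, ZT12, ZT16 and ZT24 but made 9 calls in all, 7 of them at ZT20. The fit with the set letter as a block made 12. The shares of all genes given above are those of the main edgeR fit. The shares that DESeq2 and the block fit call at single times were not counted, so their calls have no such comparison. Leaving out any 1 of 13 libraries gave a count outside 2 to 4. Without the single wild-type library of set P at ZT20 there were 20 calls, while there were 0 without either knockout library at ZT20, without wild-type set I at ZT08 and without either wild-type library at ZT12.

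The chaperone arm stood on the other side of 0 at ZT12, where edgeR and DESeq2 called none of its genes. At other times edgeR called none of them either, and DESeq2 called Pdia4, Calr, Sdf2l1 and Manf lower at ZT20. Its median log2 difference was −0.48 at ZT04, −0.19 at ZT08, 0.37 at ZT12, −0.24 at ZT16, −0.48 at ZT20 and −0.28 at ZT24, and 13 of its 14 genes were above 0 at ZT12. In set P, 13 of 14 chaperones had the lower value in the knockout at ZT04 and at ZT08, 0 at ZT12, 4 at ZT16, 11 at ZT20 and 4 at ZT24. In set I the numbers were 8, 9, 5, 8, 8 and 13. The Atf4 arm had medians of −0.60, −0.00, −0.13, −0.42, −0.18 and −0.29 over the same times. In set P the number of its 8 genes with the lower value in the knockout was 6 at ZT04, 4 at ZT08, 4 at ZT12, 6 at ZT16, 6 at ZT20 and 3 at ZT24. Genes of an arm share the library, so that these numbers describe single pairs of libraries.

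**Figure D3:**
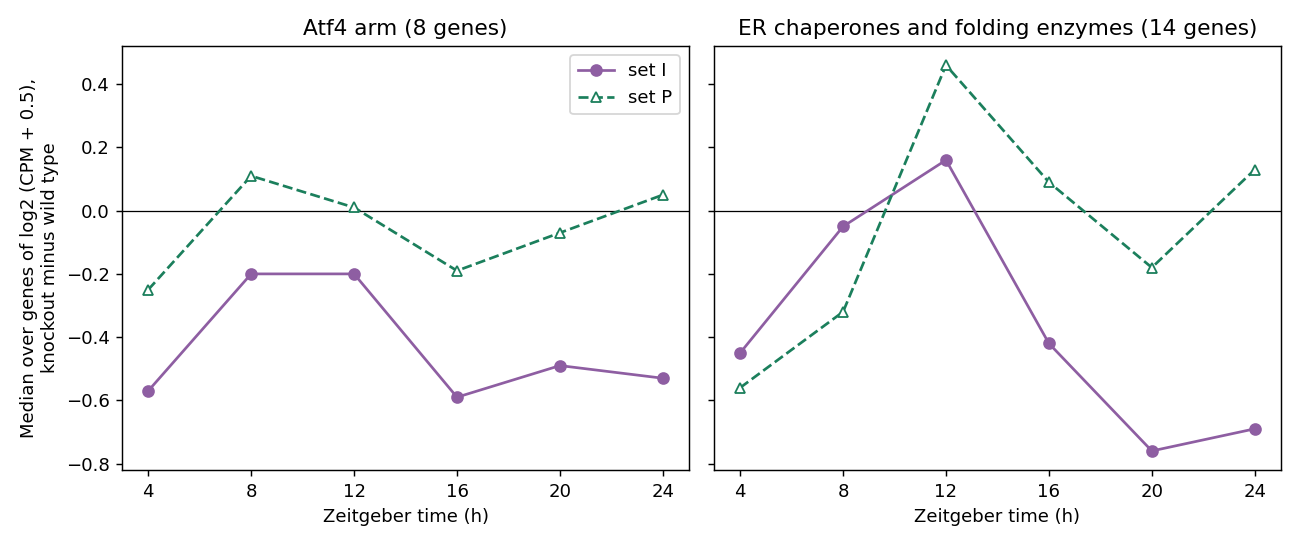
The median over genes of the difference in log2 (CPM + 0.5), knockout minus wild type, against zeitgeber time in hours for the 8 genes of the Atf4 arm (left) and the 14 ER chaperones and folding enzymes (right), in set I (circles) and set P (triangles). Each point rests on 1 knockout and 1 wild-type library; the chaperones are above 0 in both sets at ZT12, at 0.16 in set I and 0.46 in set P, and below 0 in both at ZT04, ZT08 and ZT20.

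The sets did not always agree at a given time. Creld2 had 21 and 46.1 CPM in the knockout against 43.6 and 24.6 CPM in wild type at ZT12 (set I first in each pair). At ZT16 it had 52.1 and 80.3 CPM in the knockout against 97.5 and 69.5 CPM in wild type, and at ZT20 21 and 31 CPM against 81.9 and 49.8 CPM. Hspa5 had 1530 and 1710 CPM in the knockout at ZT16, above both wild-type libraries at 959 and 1220 CPM, and 704 and 1070 CPM at ZT20, against 537 and 1140 CPM. Sdf2l1 had 18.1 and 27.9 CPM in the knockout at ZT12 against 14.9 and 13.8 CPM in wild type, and 31 and 30.5 CPM at ZT20 against 99.4 and 43 CPM. The test of genotype by time, over all 6 times, called 0 of 15090 genes by edgeR and so 0 of the 30, with Sdf2l1 alone of the 30 at an unadjusted p under 0.05. DESeq2 called 129 genes, 0 of them among the 30. Without the filter on low counts, edgeR called Sdf2l1 and Hyou1.

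**Figure D4:**
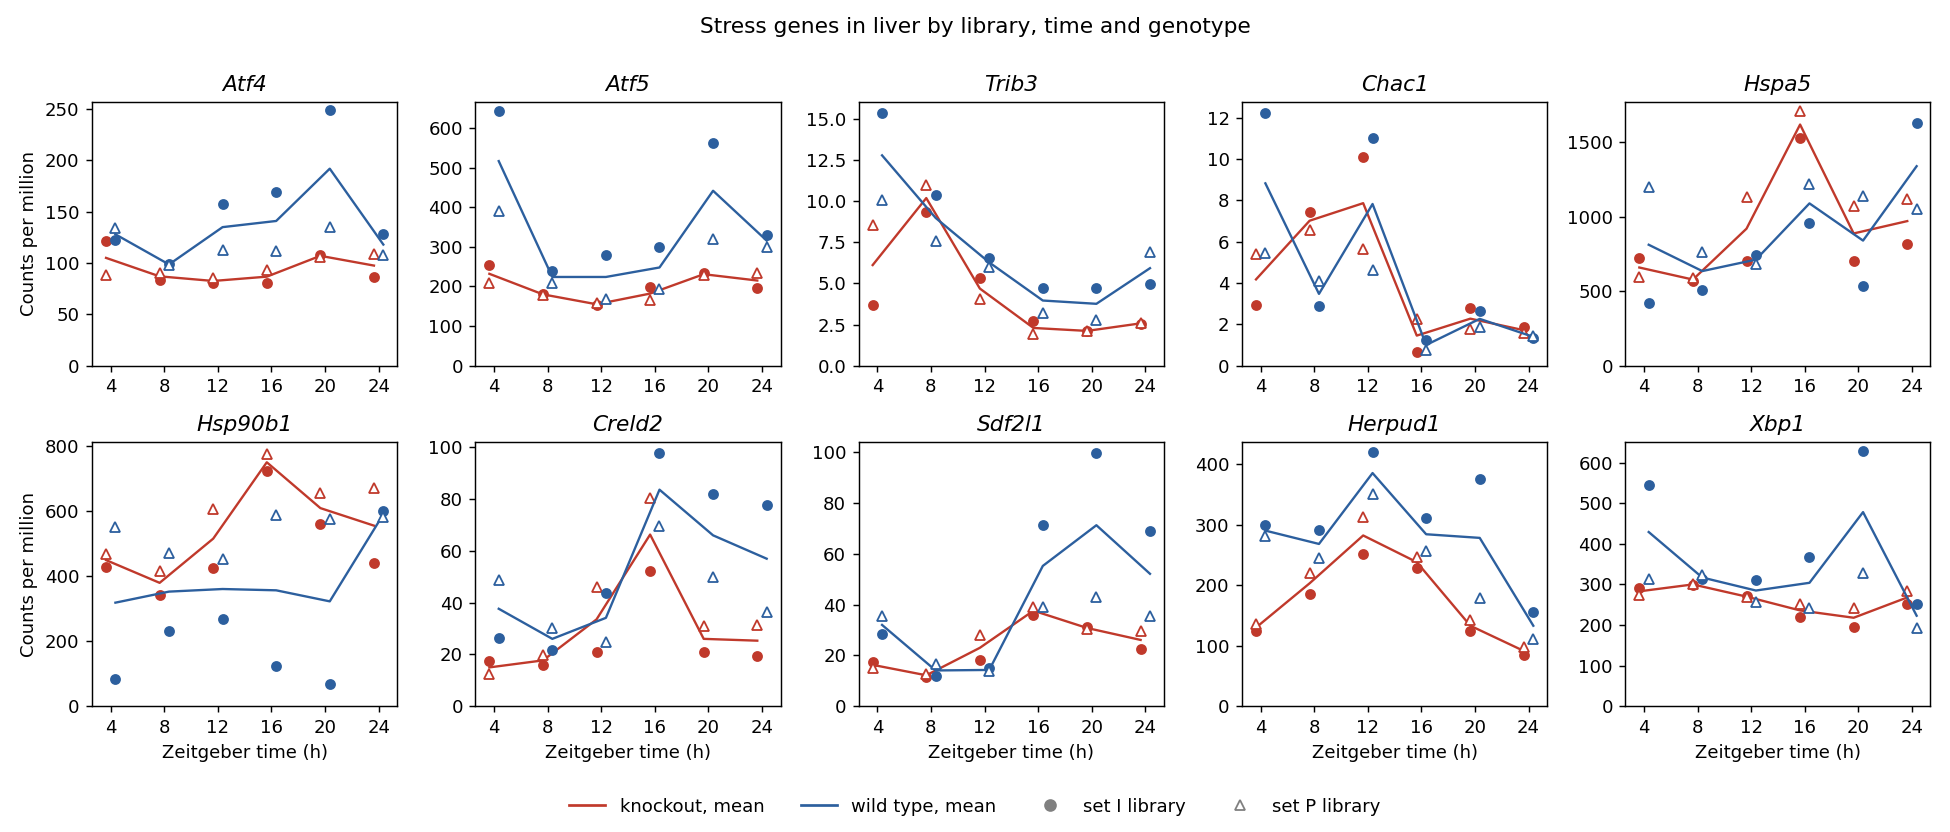
CPM (y axis, from 0) of 10 stress genes against zeitgeber time in hours, knockout in red and wild type in blue, with set I libraries as filled circles, set P libraries as open triangles and lines through the mean of the pair. Herpud1 is lower in both knockout libraries at each of the 6 times, Hspa5 peaks in the knockout at ZT16 with 1530 and 1710 CPM, and the wild-type set I libraries of Hsp90b1 are low at all times but ZT24.

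Over the day, a 24 h rhythm was called in 7 of the 30 genes in the knockout, or 23.3% beside 3.57% of all genes tested, and in 11 genes in wild type, or 36.7% beside 8.67% (edgeR test of a cosine and a sine term). Leaving out 1 library gave 2 to 9 in the knockout, with 2 without either knockout library at ZT16 or without set P at ZT04, 3 without either at ZT08 and 4 without set P at ZT20. In wild type it gave 5 to 12, with 5 without set I at ZT08 and 7 without set P at ZT12. The chaperones made up most of them, with 4 of 14 rhythmic in the knockout and 9 of 14 in wild type, while the Atf4 arm had 1 of 8 in each genotype, Trib3. Both genotypes shared 5 genes, namely Trib3, Pdia4, Dnajb11, Sdf2l1 and Creld2. In this fit, Herpud1 and Sel1l were called in the knockout alone, and Pdia3, Pdia6, Calr, Manf, Hyou1 and Syvn1 in wild type alone. These lists depend on the fit. With the set letter as a block, Pdia3 was also called in the knockout (8 genes in all) and Atf5 in wild type (12 genes). DESeq2 also called Chac1, Pdia3, Manf and Hyou1 in the knockout (11 genes) and Atf5, Chac1 and Herpud1 in wild type (14 genes). The difference of the rhythms was tested itself and was called for 0 of 15090 genes by edgeR, with Sdf2l1 and Syvn1 of the 30 below 0.05 without adjustment. DESeq2 called 23 genes, 0 of them among the 30.

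Of the 9 chaperones called rhythmic in either genotype, all 9 had an earlier fitted peak in the knockout. Their peaks lay between ZT 16.3 and 20.5 h in the knockout and between 19.3 and 21.4 h in wild type, and the shift had a median of −2.4 h, from −3.3 to −0.7 h. The edgeR adjusted p of the rhythm difference was between 0.767 and 0.982 in the 13 rhythmic genes, so that none of these shifts passed. Creld2 peaked at 16.3 h in the knockout and at 19.3 h in wild type, with amplitudes of 0.91 and 0.78, where amplitude is the distance, in log2 units, from the middle of the curve to its peak. Sdf2l1 peaked at 18.4 h in the knockout with an amplitude of 0.74, and at 20.9 h in wild type with 1.25. The peaks of the chaperones share the same 12 libraries of each genotype and are not independent of each other.

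Of the 4 rhythmic genes outside the chaperones, Trib3 and Herpud1 peaked at other hours, and Syvn1 peaked within the range of the chaperones in both genotypes. Trib3 peaked by day, at 7.5 h in the knockout and 5.8 h in wild type, with amplitudes of 1.17 and 0.86. Herpud1 peaked at 12.4 h in the knockout and at 12 h in wild type, ahead of the chaperones, with amplitudes of 0.79 and 0.46. Syvn1 peaked at 16.4 h in the knockout with an amplitude of 0.34 and at 20.9 h in wild type with 0.71. Without wild-type set I, a wild-type rhythm was called in 4 genes (Atf5, Trib3, Sdf2l1 and Herpud1), of which Trib3 and Sdf2l1 were among the 11.

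**Figure D5:**
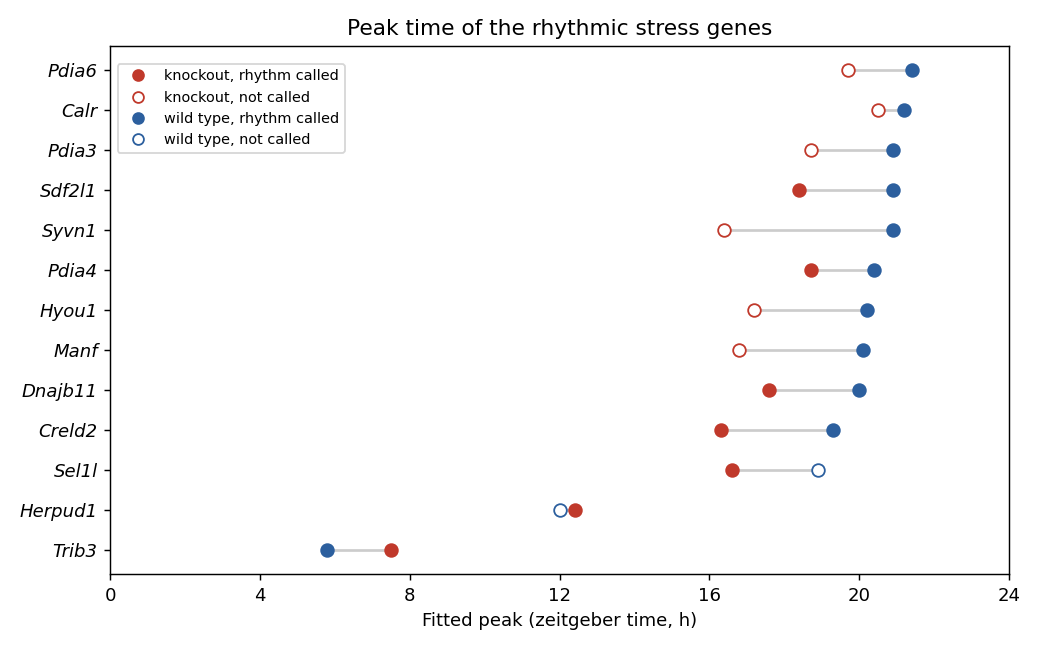
Fitted peak time, in hours of zeitgeber time, of the 13 stress genes with a 24 h rhythm called in either genotype, knockout in red and wild type in blue, filled where the rhythm of that genotype was called. The 9 chaperones, Syvn1 and Sel1l lie further left in the knockout, Herpud1 and Trib3 further right; the difference of the rhythms was called for 0 of them.

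Other genes of the same pathways were counted from lists written for each pathway. Of 25 other amino acid response genes 9 were lower and 0 higher, beside 21.1% of all genes called lower and 12.1% higher, with a median log2 difference of −0.33, and edgeR called 0 in set P (3 at an unadjusted p under 0.05, and 1 lower by DESeq2). The smallest p were those of Eif4ebp1, a brake on translation, with 18.8 ± 3.08 CPM in the knockout and 25.5 ± 5.61 CPM in wild type (SD, n = 12 each), Atf3 (−0.78), the cysteine-forming enzyme gene Cth (−0.36) and the serine synthesis gene Psph (−0.43). Of 18 cytosolic aminoacyl-tRNA synthetases, many of which ATF4 is known to drive, 11 were lower and 0 higher, with a median of −0.32. Gars had 50.6 ± 3.08 CPM in the knockout and 66.8 ± 11.9 CPM in wild type (SD, n = 12 each, log2 difference −0.40, edgeR adjusted p = 0.00313), and Cars (−0.36), Hars (−0.35) and Sars (−0.44) were the next. In set P, 1 synthetase was lower, Gars at −0.22 (edgeR adjusted p = 0.0295), and 1 was higher. DESeq2 called 11 synthetases lower and 1 higher in the average, and 0 lower and 1 higher in set P.

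Of 25 other ER folding and degradation genes 11 were lower and 3 higher, with a median of −0.25. Pdia5, a disulfide isomerase, had 57.8 ± 6.27 CPM in the knockout and 81.2 ± 14.8 CPM in wild type (SD, n = 12 each, log2 difference −0.49, edgeR adjusted p = 0.000597), and it was also lower in set P at −0.34 (edgeR adjusted p = 0.00819). Selenos (−0.37) was lower, and Fkbp14 (0.46) and the ER oxidase gene Ero1b (0.37) were higher. Of 22 ER translocation genes 6 were lower, or 27.3% beside 21.1% of all genes, and 1, Srp54a, was higher. Of 12 other ER stress regulators 6 were lower and 1 higher. Ppp1r15b, the constitutive counterpart of Ppp1r15a, had 153 ± 11.9 CPM in the knockout against 204 ± 41.8 CPM in wild type (SD, n = 12 each), and was called lower in set P as well at −0.27 (edgeR adjusted p = 0.035). Over these 5 lists edgeR called 4 genes lower and 3 higher in set P, where it called 6.31% of all genes lower and 6.7% higher.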

How the data were processed

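Liver mRNA was sequenced from 24 libraries in 12 groups, after guanidine thiocyanate extraction and stranded poly(A) library preparation per the labels' protocols. The file that the authors deposited holds whole-number read counts for each Ensembl gene and library, with no normalization. Per the submitters' processing notes, STAR 2.4.0i and build mm10 were used. The sources used here do not give the counting tool, the annotation or the strand setting, so how reads of overlapping, antisense or near-identical genes were shared out is unknown. Symbols and coordinates came from GENCODE M21 (54495 of 54532 IDs matched). Ddit3 has a second ID, which was at 0 in all libraries.

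CPM values were computed from the counts and TMM-scaled library sizes. The tests, quasi-likelihood F-tests of edgeR 4.0.16 run in R 4.3.3, covered 15090 genes kept by filterByExpr (minimum count 10), with Benjamini-Hochberg adjustment and a call at an adjusted p under 0.05. A fit of 12 group means gave the averaged, single-time and genotype by time contrasts; a cosine fit of 24 h gave rhythms; each set alone was fitted with time as a factor; a further fit tested genotype by set. The SE is the log2 difference over the root of F. Set medians by time used log2 (CPM + 0.5). Alternatives were DESeq2 1.42.0, DESeq2 size factors, no filter, a block for the set letter, spline offsets for GC content and length (4 degrees of freedom), and left-out libraries. The averaged, set P and wild-type rhythm tests were tried on simulated counts that held no effect of set or GC content. The other tests were not tried in this way.

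The set letter was checked as a pairing by correlating, between genotypes, the deviations of same-letter libraries from their group means. Over 12660 genes with a mean of at least 1 CPM, r in order of time was 0.262, 0.194, 0.298, 0.114, 0.112 and 0.124, all above the limit of 0.1. Over all genes tested, r was 0.184, 0.123, 0.231, 0.0705, 0.0541 and 0.0842, and the last 3 were below it. Whether the letter pairs the samples thus depends on the genes used. The main fits of the averaged, single-time and rhythm results did not pair by the letter, which entered as a block in an alternative fit only. The effect of that block on these calls is given with those results, by gene or as a count.

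The members and lists were chosen with earlier results of these data known. All members are accounted for; full values go to Atf4, Hspa5 and Xbp1, to the smallest p and largest amplitudes of each role group, and to members called in set P, between sets or at 1 time. From each pathway list up to 4 genes with the smallest p were named. Other values, such as those of Nupr1, Asns and the chaperones without a call, were named after they were seen.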

Additional observations from a re-analysis of the deposited data

Results flagged for a closer look

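There were 9 stress genes whose genotype difference, knockout minus wild type on the log2 scale, differed between the sets by the genotype by set term (edgeR adjusted p 0.0171 to 0.0422), as set I minus set P. They are 30% of the 30 genes, beside 29% of all genes tested. The difference between the sets was −0.49 in Atf5, −0.40 in Pdia4, −0.36 in Pdia6, −0.47 in Calr, −0.60 in Herpud1 and −0.60 in Xbp1. It was 1.32 in Hsp90b1, 0.78 in Canx and 0.80 in Dnajc3. In set I alone, Canx was higher in the knockout at 6 of 6 times, with 407 to 608 CPM (median 506) in the knockout against 119 to 498 CPM (median 272) in wild type. In set P, Canx had 477 to 646 CPM (median 603) in the knockout against 457 to 562 CPM (median 512) in wild type, with the higher value in the knockout at 6 of 6 times but no call (edgeR adjusted p = 0.0693). Dnajc3 had 271 to 472 CPM (median 362) in knockout set I against 133 to 440 CPM (median 178) in wild-type set I, and 302 to 519 CPM (median 458) in knockout set P against 335 to 440 CPM (median 411) in wild-type set P. With offsets for GC content and length none of the 9 was called, and without wild-type set I at ZT16 edgeR called 0 of the 30 genes.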

How the results depend on the processing

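Averaged over the times, 14 genes were called (14 lower). Other fits called 13 with DESeq2 size factors, 14 by DESeq2, 15 without the filter (12 lower, 3 higher), 16 with the replicate block (14 lower, 2 higher), 12 with the block and GC and length offsets (11 lower, 1 higher) and 10 without wild-type set I (9 lower, 1 higher). Leaving out single libraries gave 9 to 19, with 9 without wild-type set I at ZT24. Edem1 turned to −0.24 under the block with offsets, and the cause was not tested. The 3 calls at single times became 21 without the filter, 9 by DESeq2, 12 with the block, 7 with the block and offsets, 5 without wild-type set I (added after seeing the data) and 0 to 20 without single libraries. Genotype by time gave 0, but 2 without the filter. The 9 genes that differed between sets became 1 with GC and length offsets and 0 to 12 without single libraries, with 0 without wild-type set I at ZT16. In set P alone, 2 became 7 without the filter, 1 with the offsets and 0 to 3 without single libraries. In set I alone, 14 became 6 with the offsets and 0 to 11 without single libraries. The 11 wild-type rhythms became 4 without wild-type set I (added after seeing the data), 12 with the block and 5 to 12 without single libraries. They became 14 by DESeq2 and 15 with the block and GC and length offsets. The 7 knockout rhythms became 11 by DESeq2, 3 with the times as a factor, 8 with the block and 2 to 9 without single libraries. The rhythm difference gave 0 of the 30 genes in all fits run, the block included. The cause of these moves was not tested. Of the 30 genes, Chac1, Trib3 and Ddit3 had the lowest means, at 4.1, 5.8 and 5.81 CPM, and the part of depth was not tested.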
